A study of Rattus norvegicus with 8 samples.

Results

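Interferon response genes were followed in whole rat retina 4 h after transcorneal electrical stimulation (TES). The set holds 38 genes chosen by function, and 36 of them have probe sets of their own on the array, out of 16633 genes measured in all. Ifnar2 and Eif2ak2 were not matched and are not analysed here. All 8 retina samples came from male Brown Norway rats aged 8 weeks. TES, in which current is passed through the eye from an electrode on the cornea, had been given before 4 samples. The other 4 samples followed a sham procedure, and no further agent or allele is named for either group. Each sample was hybridised to its own Affymetrix Rat Gene 1.0 ST array. Since the labels do not say that each array holds a separate animal, a p-value here covers only the variation among these samples, some of which may be technical.

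Interferons are cytokines that cells release when they sense viral nucleic acid or receive inflammatory signals. Type I interferons bind the receptor made of Ifnar1 and Ifnar2, and interferon gamma binds that made of Ifngr1 and Ifngr2. Both receptors signal through Janus kinases to STAT proteins. A complex that holds Stat2 and Irf9 binds the interferon-stimulated response element (ISRE) in promoters, the gamma-activated site (GAS) is read downstream of interferon gamma, and the transcription factors of the IRF family bind ISRE-like sequences as well. The induced genes include sensors of viral RNA, antiviral enzymes and the machinery that loads peptides on MHC class I molecules. In retina, microglia, Mueller glia and vascular cells are known to respond to interferon.

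No interferon response gene differed between TES and sham retinas past an adjusted p of 0.05 in limma, and no gene on the array did (0.0% of 16633). The 36 adjusted p-values lay between 0.817 and 0.999. At an unadjusted p under 0.05, limma gave 5 members, against 5.57% of all genes. Rnf125, Oas1h and Rsad2 were the 3 of these with higher values after TES, and Ddx58 and Irf2 the 2 with lower values. At the same level 2.35% of all genes were higher and 3.22% lower. With a change of at least 1.2 fold as well, the thresholds of the study, 4 members were left (Rnf125, Oas1h, Rsad2 and Ddx58), against 3.59% of all genes. Differences below are TES minus sham on the log2 scale, and ran from -0.33 for Ddx58 to 0.51 for Rnf125 over the set. In 33 members the whole 95% interval lay within a change of 1.5 fold in either direction, as a mean over all probe sets of the gene. Intervals on the probe set of highest signal could be wider, such as 0.26 to 1.80 for Irf7 and -1.77 to -0.15 for Tap2.

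The 3 with higher values lay at or below a guide to low signal, Rnf125 only just, and the 2 with lower values lay above it. Olfactory receptor genes, of which the array holds 1100, served as a guide to low signal, and the 95th percentile of their mean log2 signal was 3.10. Rnf125, Oas1h and Rsad2 lay at or below it with means over 8 arrays of 3.08, 2.39 and 2.73. Ddx58 and Irf2 lay above it with 3.68 and 5.92, where the median over all genes was 5.16. Single probe sets had means from 2.0 to 3.7 in Rnf125 and from 1.9 to 5.2 in Ddx58, on both sides of that percentile. In all, 13 of 36 members (36.1%) lay at or below that percentile, against 24.8% of all genes. Among the 23 members above it, 2 had an unadjusted p under 0.05, where 4.72% of all genes above it did.

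**Figure D1:**
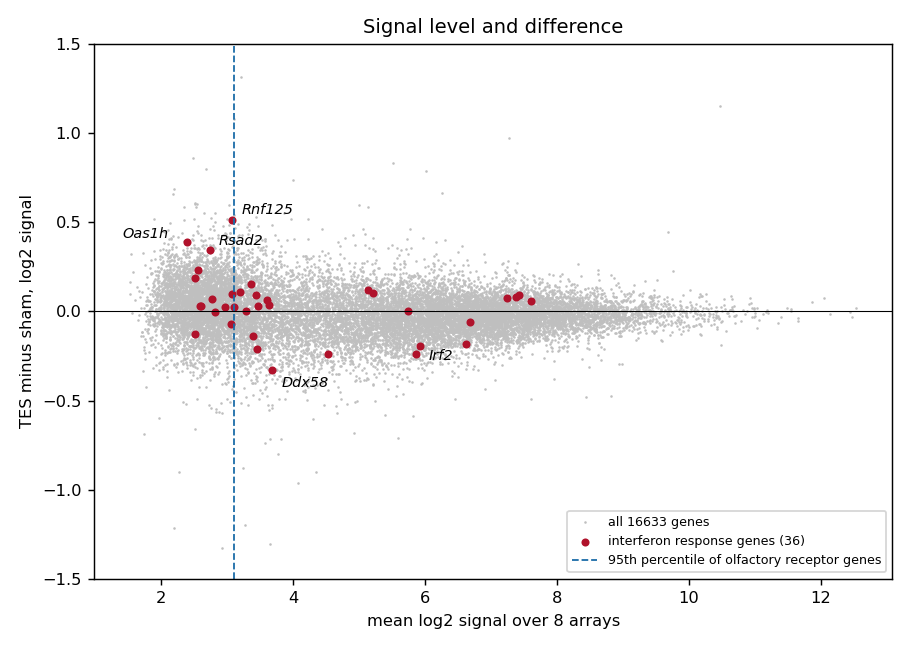
Mean log2 signal over 8 arrays (x axis) against the TES minus sham difference in log2 signal (y axis) for all 16633 genes (grey) and the 36 interferon response genes (red). The dashed line marks the 95th percentile of olfactory receptor genes at 3.10; Rnf125, Oas1h and Rsad2 lie left of it with differences of 0.51, 0.39 and 0.34, and Ddx58 and Irf2 right of it with -0.33 and -0.19.

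Taken over the set, 25 members were higher and 11 lower after TES, with a median difference of 0.04, beside 45.1% higher and a median of -0.01 over all genes. With each array centred on its median the count was 26 higher (58.1% of all genes), and after quantile normalization 22 (50.2%). With the median probe set of each gene it was 21 (46.8%), and with the probe set of highest signal 23 (50.5%). Without TES 1, 20 were higher and the median was 0.00, and without TES 4, 21 were higher and the median was 0.03. The median was 0.06 without TES 2, 0.07 without TES 3 and 0.06 without sham 3. None of these values has a test of its own, since the members were chosen as a group.

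**Figure D2:**
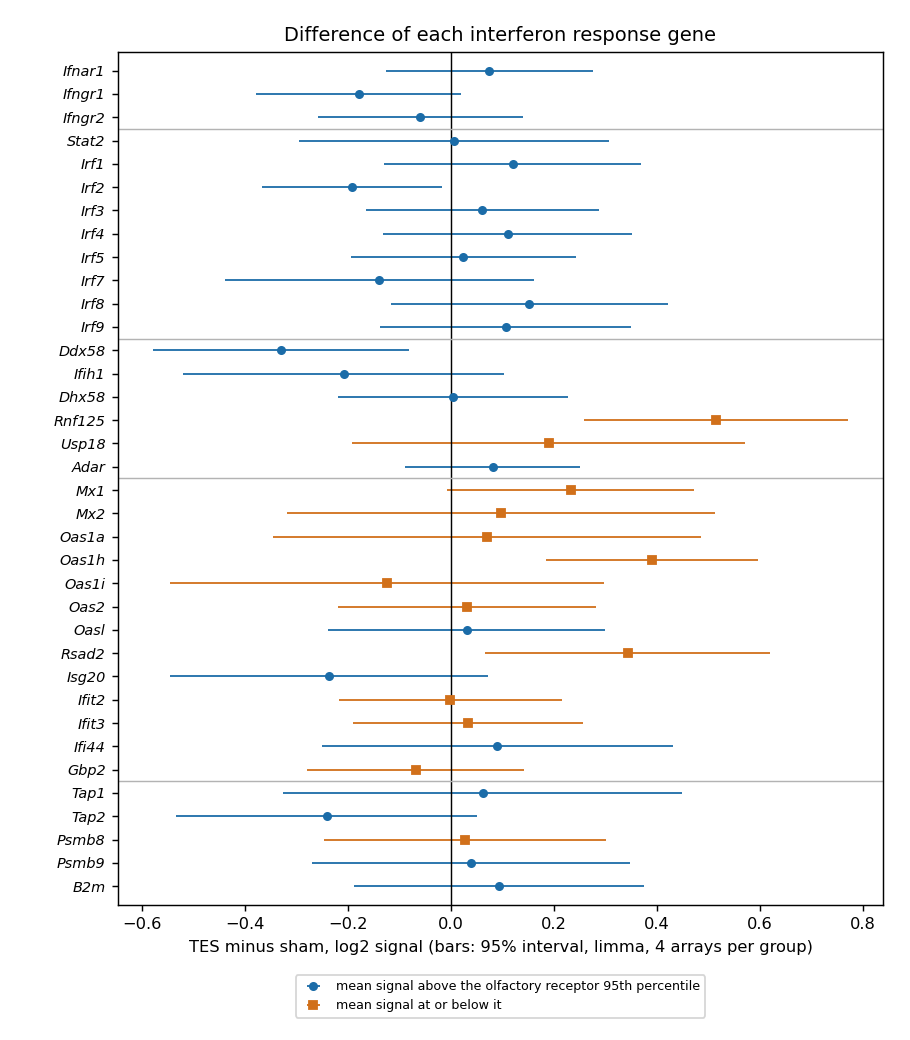
TES minus sham difference in log2 signal (x axis) of each of the 36 interferon response genes (y axis), grouped by role from receptors at the top to antigen presentation at the bottom. Points are limma estimates over 4 TES and 4 sham arrays with 95% intervals; blue circles mark genes above the 95th percentile of olfactory receptors and orange squares those at or below it. The interval excludes 0 for Rnf125, Oas1h, Rsad2, Ddx58 and Irf2 and includes it for the other 31.

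The receptor genes were well above low signal on every array. Ifnar1, a subunit of the type I receptor, stood at 7.25, 7.17, 7.27 and 7.39 on TES 1 to TES 4, against 7.30, 7.02, 7.18 and 7.29 on sham 1 to sham 4, and the groups overlapped. Ifngr1, the ligand-binding chain of the interferon gamma receptor, stood at 6.53, 6.48, 6.55 and 6.56 on TES 1 to TES 4, against 6.74, 6.65, 6.56 and 6.91 on sham 1 to sham 4. All 4 TES values of Ifngr1 lay below all 4 sham values, although TES 4 and sham 3 were only a rounding step apart. Its difference was -0.18 (95% interval -0.38 to 0.02) with a limma adjusted p of 0.893. Ifngr2, the other chain of that receptor, read 6.55, 6.54, 6.74 and 6.76 on the TES arrays in order of number and 6.70, 6.84, 6.69 and 6.60 on the sham arrays. The 2 lowest TES arrays of Ifngr2 lay below every sham array and the other 2 among them. Ifnar1 and Ifngr2 differed by 0.07 (95% interval -0.13 to 0.27) and -0.06 (95% interval -0.26 to 0.14). As a mean over all probe sets, each interval left room for a change of about 1.2 fold at most. On the probe set of highest signal the intervals were wider. There Ifnar1 differed by -0.27 (95% interval -0.61 to 0.08) and Ifngr2 by 0.00 (95% interval -0.41 to 0.42). On the mean over all probe sets the groups of 5 members did not overlap, those of Ifngr1, Irf2, Ddx58, Rnf125 and Oas1h. The share over all genes was 3.31%.

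Among the 9 transcription factors, 7 were higher and 2 lower after TES, and Irf2 alone had an unadjusted p under 0.05. With the median probe set or that of highest signal 6 were higher and 3 lower. Irf2, which competes with Irf1 for the same sites and mostly represses interferon targets, stood at 5.87, 5.83, 5.79 and 5.82 on TES 1 to TES 4, against 6.00, 5.93, 6.01 and 6.15 on sham 1 to sham 4. Every TES array lay below every sham array. The mean of Irf2 was 5.83 ± 0.03 after TES and 6.02 ± 0.09 after sham (SD, n = 4 each), and the difference was -0.19 (95% interval -0.37 to -0.02) with a limma adjusted p of 0.849. Without TES 2, TES 3, TES 4, sham 1, sham 3 or sham 4, with arrays centred on their median, after quantile normalization or on its probe set of highest signal, its unadjusted p was no longer under 0.05. Its probe sets spread: 7 of 9 were lower after TES, and the 1 of highest signal differed by 0.02. Irf1, an activator induced by interferon gamma, stood at 5.01, 5.05, 5.23 and 5.49 on TES 1 to TES 4, against 4.94, 5.06, 5.19 and 5.10 on sham 1 to sham 4. TES 3 and TES 4 were the highest of 8 and TES 1 lay among the lowest, and the difference was 0.12 (95% interval -0.13 to 0.37).

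Stat2 and Irf9, of the ISRE-binding complex, showed no separation. Stat2 stood at 5.70, 5.56, 5.94 and 5.76 on TES 1 to TES 4, against 6.07, 5.43, 5.60 and 5.84 on sham 1 to sham 4. It was highest on sham 1 and lowest on sham 2, with all TES arrays between them, and the difference was 0.00 (95% interval -0.30 to 0.31) over 23 probe sets. Irf9, the DNA-binding subunit, read 5.57, 5.11, 5.08 and 5.27 on the TES arrays in order of number and 5.23, 5.17, 5.09 and 5.12 on the sham arrays. TES 1 alone stood clear of the rest, and without it the difference of Irf9 was 0.00, against 0.11 with it.

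Irf7 and Irf8 differed in opposite directions, each within its spread. Irf7, which amplifies type I interferon production, stood at 3.32, 3.35, 3.02 and 3.60 on TES 1 to TES 4, against 3.69, 3.56, 3.21 and 3.38 on sham 1 to sham 4. Its groups overlapped and its difference was -0.14 (95% interval -0.44 to 0.16). The probe set of highest signal in Irf7 went the other way, with 5.70 ± 0.54 after TES and 4.67 ± 0.56 after sham (SD, n = 4 each), and the difference was 1.03 and an adjusted p of 0.902 in limma on such probe sets, where 5 members (Irf7, Oas2, Rsad2, Isg20 and Tap2) and 5.16% of all genes had an unadjusted p under 0.05. Irf8, a factor of microglia and other myeloid cells, read 3.58, 3.47, 3.35 and 3.33 on the TES arrays in order of number and 3.16, 3.28, 3.63 and 3.06 on the sham arrays. Sham 3 was the highest of 8 and the other 3 sham arrays the lowest, and the difference was 0.15 (95% interval -0.12 to 0.42). Irf4, best known from lymphocytes, stood at 3.35, 3.40, 3.15 and 3.11 on TES 1 to TES 4, against 3.40, 2.98, 3.13 and 3.06 on sham 1 to sham 4. TES 1, TES 2 and sham 1 formed its upper values, and the difference was 0.11 (95% interval -0.13 to 0.35). Irf3, which is present before any stimulus and switches on the interferon beta gene, and Irf5, which acts downstream of Toll-like receptors, differed by 0.06 and 0.02.

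Microglia are known to express several of these genes, and their markers were read beside them. Of 16 microglia and macrophage markers measured, 5 were higher and 11 lower after TES, with a median difference of -0.05, beside 45.1% higher over all genes. Their summed linear signal ranged from 240.7 to 273.5 on TES arrays and from 254.5 to 295.4 on sham arrays. Cd14 (-0.57) was the 1 marker with an unadjusted p under 0.05 in limma, where 5.57% of all genes were. At or below the olfactory receptor percentile lay 4 markers (Itgam, Cd14, Fcgr3a and Ptprc). The part of microglia in the values above was not tested. In whole retina, fewer cells of a type and less RNA per cell cannot be told apart.

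The RNA sensors and their regulators held both ends of the set, Ddx58 with the most negative difference and Rnf125 with the most positive. Ddx58 (RIG-I), a helicase that detects viral RNA with a free triphosphate end, stood at 3.33, 3.71, 3.67 and 3.37 on TES 1 to TES 4, against 3.73, 4.03, 3.88 and 3.76 on sham 1 to sham 4. Every TES array lay below every sham array, with TES 1 and TES 4 lowest. The mean was 3.52 ± 0.20 after TES and 3.85 ± 0.14 after sham (SD, n = 4 each), and the difference was -0.33 (95% interval -0.58 to -0.08) with a limma adjusted p of 0.836. Of its 18 probe sets 13 were lower and 5 higher, and single probe sets ran from -1.13 to 1.23. Rnf125, a ubiquitin ligase known in human cells to mark RIG-I for degradation, stood at 3.22, 3.15, 3.36 and 3.60 on TES 1 to TES 4, against 2.96, 2.83, 2.88 and 2.61 on sham 1 to sham 4. All TES arrays lay above all sham arrays, and TES 4 and sham 4 were the ends of the range. The mean was 3.33 ± 0.20 after TES and 2.82 ± 0.15 after sham, and differed by 0.51 (95% interval 0.26 to 0.77) with a limma adjusted p of 0.817. All 7 probe sets of Rnf125 were higher after TES, by 0.09 to 1.42.

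The other sensors did not share the pattern of Ddx58 clearly. Ifih1 (MDA5), a sensor of long double-stranded RNA, stood at 3.30, 3.34, 3.25 and 3.52 on TES 1 to TES 4, against 3.45, 3.88, 3.74 and 3.17 on sham 1 to sham 4. Its sham arrays spanned the whole range, with sham 2 highest and sham 4 lowest, and the difference was -0.21 (95% interval -0.52 to 0.10). Dhx58 (LGP2), which modulates both sensors, had a mean of 3.28 ± 0.15 after TES and 3.28 ± 0.12 after sham. Of the inhibitors of the response, Usp18, which removes Isg15 from proteins and blocks Ifnar2 signalling, differed by 0.19 (95% interval -0.19 to 0.57) at low signal on 3 probe sets. Adar, which edits double-stranded RNA so that MDA5 does not sense it, had a mean of 7.43 ± 0.07 after TES and 7.34 ± 0.05 after sham, and differed by 0.08 (95% interval -0.09 to 0.25). Its interval was among the narrowest of the set, and 3 of 4 TES arrays lay above every sham array.

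**Figure D3:**
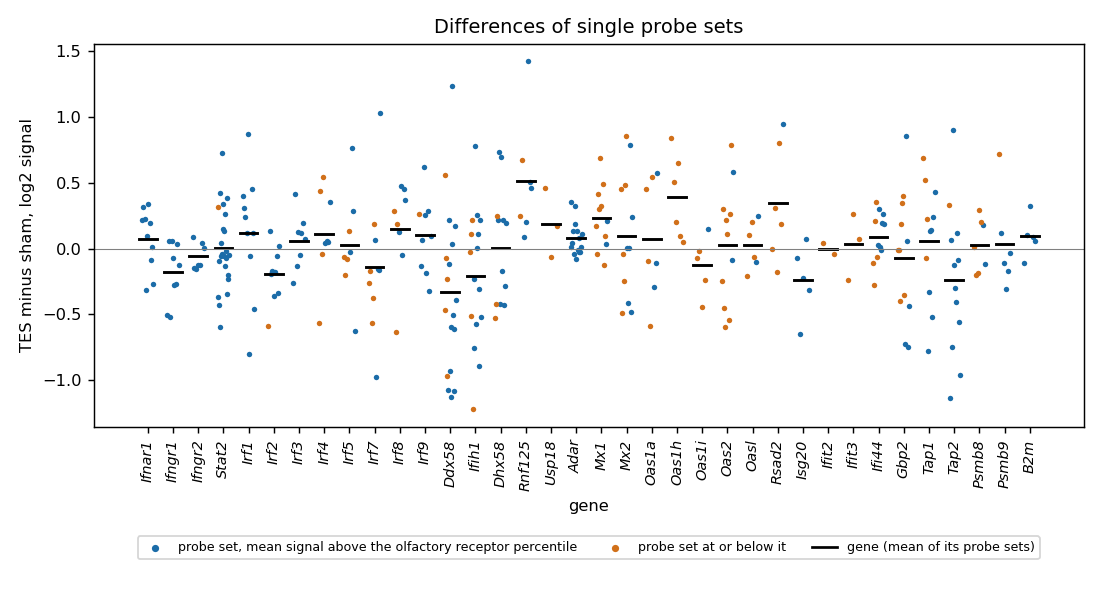
TES minus sham difference in log2 signal (y axis) of each of the 329 probe sets of the 36 interferon response genes (x axis), with the gene's own difference as a black bar; points are spread sideways within a gene in order of signal. Blue points lie above the olfactory receptor percentile and orange points at or below it. All 7 probe sets of Rnf125 and all 6 of Oas1h lie above 0, while those of Ddx58 run from -1.13 to 1.23.

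Single probe sets spread far more than genes. Over the whole array, the standard error of the difference had a median of 0.26 for probe sets and 0.11 for genes. Tested probe set by probe set, 23 of 329 (6.99%) had an unadjusted p under 0.05 in limma, 14 higher and 9 lower, against 5.04% of all 172924. The smallest adjusted p among them was 0.877. Ddx58 held 5 of the 23, of which 4 were lower after TES and 1 higher. Irf1 held 2 in opposite directions, -0.80 and 0.87, and so did Irf7 and Ifih1.

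Of 13 antiviral effector genes 10 lay at or below the olfactory receptor percentile, and 9 were higher and 4 lower after TES. After quantile normalization 7 were higher and 6 lower, and without TES 1 the counts were 6 and 7. With the median probe set they were 7 and 6, and with the probe set of highest signal 10 and 3. Oas1h, of the 2'-5' oligoadenylate synthetase family whose products activate RNase L, stood at 2.44, 2.64, 2.52 and 2.75 on TES 1 to TES 4, against 2.15, 2.10, 2.22 and 2.33 on sham 1 to sham 4. All TES values lay above all sham values, at a level near the median of olfactory receptors (2.31). The mean was 2.59 ± 0.13 after TES and 2.20 ± 0.10 after sham (SD, n = 4 each), and the difference was 0.39 (95% interval 0.18 to 0.60) with a limma adjusted p of 0.817. All 6 probe sets were higher after TES, but that of highest signal by only 0.05. Rsad2 (viperin), which makes a chain-terminating nucleotide that stops viral polymerases, stood at 2.72, 3.02, 2.70 and 3.18 on TES 1 to TES 4, against 2.48, 2.73, 2.66 and 2.38 on sham 1 to sham 4. TES 2 and TES 4 lay above every sham array and TES 1 and TES 3 did not. The difference of Rsad2 was 0.34 (95% interval 0.07 to 0.62), with a limma adjusted p of 0.843, and without TES 2, TES 4 or sham 4 its unadjusted p was no longer under 0.05. Of its 6 probe sets 4 were higher after TES, and that of highest signal read 3.60 ± 0.41 after TES and 2.66 ± 0.61 after sham. On that probe set all TES arrays lay above all sham arrays.

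The relatives of Oas1h did not show its separation. Oas1a stood at 3.48, 2.59, 2.55 and 2.56 on TES 1 to TES 4, against 2.60, 2.59, 2.84 and 2.88 on sham 1 to sham 4. TES 1 stood clear of the rest, and the other 3 TES arrays were level with the lowest sham arrays. Oas1i read 2.99, 2.21, 2.17 and 2.43 on the TES arrays in order of number and 2.43, 3.02, 2.34 and 2.52 on the sham arrays. TES 1 and sham 2 were its 2 high arrays, and the difference was -0.12 (95% interval -0.55 to 0.30). Oas2 and Oasl, further family members, differed by 0.03 and 0.03. The Oas1 genes are close copies of each other, so probes may not keep them apart, and the files do not show how far they do.

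The promoters of these 3 Oas1 genes and of Rsad2 are shown because 2 of the 4 genes had an unadjusted p under 0.05 and because they differ in ISRE letters. Each is the 250 bases before the gene start, from RefSeq on the rat assembly GRCr8. Capitals mark the ISRE letters GAAANNGAAA on either strand and the GAS letters TTCNNNGAA, which read the same on both strands.
Oas1h (chr12:41353992-41354241, minus strand): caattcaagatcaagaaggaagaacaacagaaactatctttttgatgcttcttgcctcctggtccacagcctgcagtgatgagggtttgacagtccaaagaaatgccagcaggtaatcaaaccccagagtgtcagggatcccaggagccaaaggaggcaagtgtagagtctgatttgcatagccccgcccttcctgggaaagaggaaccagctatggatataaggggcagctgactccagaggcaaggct
Rsad2 (chr6:48788121-48788370, minus strand): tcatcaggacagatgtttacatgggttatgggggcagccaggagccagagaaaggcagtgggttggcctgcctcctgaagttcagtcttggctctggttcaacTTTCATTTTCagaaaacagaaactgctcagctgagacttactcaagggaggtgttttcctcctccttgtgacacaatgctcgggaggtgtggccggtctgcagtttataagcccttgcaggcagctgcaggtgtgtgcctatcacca
Oas1a (chr12:41330216-41330465, plus strand): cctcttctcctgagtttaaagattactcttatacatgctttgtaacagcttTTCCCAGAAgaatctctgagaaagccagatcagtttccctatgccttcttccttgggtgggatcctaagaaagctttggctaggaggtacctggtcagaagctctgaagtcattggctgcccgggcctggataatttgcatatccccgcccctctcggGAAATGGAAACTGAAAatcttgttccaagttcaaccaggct
Oas1i (chr12:41284976-41285225, plus strand): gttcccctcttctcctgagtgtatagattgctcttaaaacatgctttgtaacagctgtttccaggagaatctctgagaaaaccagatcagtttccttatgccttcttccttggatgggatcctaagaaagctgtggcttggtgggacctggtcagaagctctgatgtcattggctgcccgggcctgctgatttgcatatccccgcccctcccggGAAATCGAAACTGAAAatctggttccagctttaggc
Oas1a and Oas1i each held 2 overlapping ISRE matches close to the start, and Oas1a a GAS match further up. Rsad2 held 1 ISRE match, and Oas1h none of either in this window.

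RefSeq promoters of 300 bases, 250 before to 50 after the start, were found for 28 of the 36 members. ISRE letters occurred in 13 of these 28 (46.4%) and in 1312 of all 33465 promoters of that length (3.92%). GAS letters occurred in 5 (17.9%), those of Irf1, Irf8, Irf9, Oas1a and Psmb8, and in 8.87% of all promoters. Matching letters are a description and do not show that a factor binds. The matches in 6 members described with their values on every array are printed with their flanks, because they carry the letters by which the pathway is defined, and that of Irf8 is the more distant of its 2.
Irf7 ISRE (chr1:205800073-205800102, minus strand): acagtttaggTTTCATTTTCccgagacgca
Ifih1 ISRE (chr3:67684008-67684037, minus strand): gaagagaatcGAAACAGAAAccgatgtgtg
Isg20 ISRE (chr1:142239957-142239986, plus strand): taatgaaccaGAAACTGAAActaaaacggc
Tap2 ISRE (chr20:4652318-4652347, minus strand): gcagcgaagtGAAAGCGAAAgcccgggacc
Irf1 GAS (chr10:38417783-38417812, plus strand): acagcctgatTTCCCCGAAatgatgaggcg
Irf8 GAS (chr19:65699094-65699123, plus strand): cagaagtgatTTCTCGGAAaggcgagcgct
The 13 members with ISRE letters were 7 higher and 6 lower after TES, with a median difference of 0.03. Of the 15 without them 13 were higher and 2 lower, with a median of 0.07. After quantile normalization these counts were 6 and 7 against 13 and 2, and without TES 1 they were 5 and 8 against 12 and 3. With the median probe set of each gene they were 7 and 6 against 10 and 5. With the probe set of highest signal they were 8 and 5 against 9 and 6, and the medians took the opposite order, 0.07 with ISRE letters and 0.05 without. Rsad2 was the 1 member with ISRE letters that had an unadjusted p under 0.05 in limma, and Rnf125 and Oas1h were the 2 without. At that level were 5.57% of all genes, and 45.1% of all genes were higher after TES. Ddx58 and Irf2, the 2 members lower at that level, were among the 8 with no promoter found and are in neither count.

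**Figure D4:**
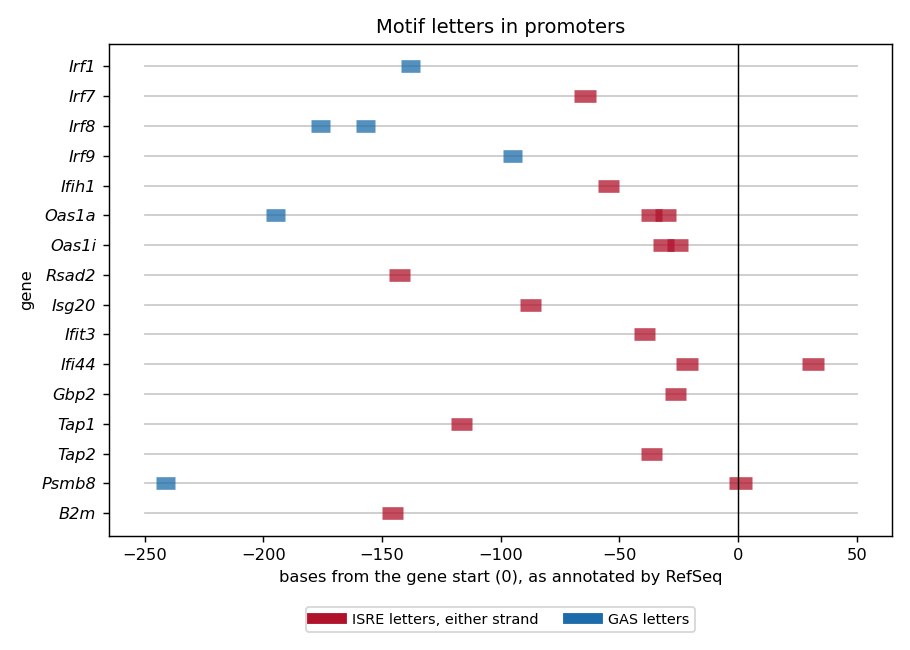
Positions of ISRE letters (red, either strand) and GAS letters (blue) in bases from the annotated gene start (x axis) for the 16 interferon response genes whose 300-base promoter holds at least 1 match (y axis). Overlapping matches in Oas1a and Oas1i show darker; Ifi44 has a match on each side of the start, and the ISRE letters of Psmb8 span it.

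Isg20, Ifi44 and Oasl were the 3 effectors above the olfactory receptor percentile. Isg20, an exonuclease that degrades viral RNA, stood at 5.43, 6.08, 5.73 and 5.73 on TES 1 to TES 4, against 6.12, 6.06, 5.69 and 6.06 on sham 1 to sham 4. TES 1 was lowest and sham 1 highest, TES 2 lay among the sham arrays, and the difference was -0.24 (95% interval -0.55 to 0.07). On its probe set of highest signal all TES arrays lay below all sham arrays, with 7.20 ± 0.12 after TES and 7.51 ± 0.15 after sham. Rsad2, higher after TES, and Tap2, lower, were the other members to separate on such probe sets. The share of all genes that did so was not counted. The Mx genes encode dynamin-like GTPases that trap viral nucleocapsids. Mx1 differed by 0.23 (95% interval -0.01 to 0.47), with 3 TES arrays above every sham array, and Mx2 by 0.10 (95% interval -0.32 to 0.51). Ifit2 and Ifit3, which bind foreign RNA or the proteins that do, differed by 0.00 and 0.03 on 2 and 3 probe sets. Ifi44 and the guanylate-binding protein gene Gbp2 differed by 0.09 and -0.07.

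Genes of antigen presentation gave 4 members higher and 1 lower after TES, none with an unadjusted p under 0.05. With the probe set of highest signal 2 were higher and 3 lower, and with the median probe set or without TES 1 the counts were 3 and 2. Tap2, a subunit of the transporter that carries peptides into the endoplasmic reticulum, stood at 4.33, 4.09, 4.48 and 4.72 on TES 1 to TES 4, against 4.59, 4.89, 4.56 and 4.55 on sham 1 to sham 4. TES 1, TES 2 and TES 3 lay below every sham array and TES 4 did not, and the difference was -0.24 (95% interval -0.53 to 0.05). On the probe set of highest signal Tap2 read 6.20, 5.44, 4.51 and 6.12 after TES and 6.34, 6.50, 6.87 and 6.39 after sham, where the groups did not overlap and TES 3 was far below the rest. Its partner Tap1 had a mean of 3.63 ± 0.34 after TES and 3.57 ± 0.28 after sham, and differed by 0.06 (95% interval -0.33 to 0.45). The immunoproteasome subunits Psmb8 and Psmb9, which trim peptides for MHC class I, differed by 0.03 and 0.04. B2m, the light chain of MHC class I, had a mean of 7.48 ± 0.23 after TES and 7.38 ± 0.18 after sham, and differed by 0.09 (95% interval -0.19 to 0.37).

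Read array by array, members were highest most often on TES 4, TES 1 and sham 2, and on TES 3 in no case. TES 4 was the highest of 8 arrays for 9 members (25.0%), among them Rnf125, Oas1h, Rsad2, Mx1, Irf1 and Tap1, where it was highest for 13.6% of all genes. TES 1 was the highest for 8 members (22.2%), against 11.1% of all genes. These were Mx2, Oas1a, Ifit3, Ifi44, Usp18, Irf9, Irf3 and B2m. TES 3 was the lowest array for 8 members (22.2%, against 11.3% of all genes), 4 of them effectors, and TES 2 was the highest for Irf4 alone. Sham arrays ranked unevenly as well. Sham 2 was the highest for 7 members (19.4%, against 16.3% of all genes) and the lowest for 8 (22.2%, against 18.4%), and sham 4 was the lowest for 7 (19.4%, against 9.1%).

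Members at low signal were read in the same way, and the cause of their high values on TES 1 was not tested. Among the 13 members at or below the olfactory receptor percentile TES 1 was highest for 4 (30.8%), against 9.85% of all genes at such signal, and TES 4 for 5 (38.5%), against 22.3%. The high values of Mx2 and Oas1a on TES 1, chosen for mention after their values were seen, rest on 6 of 12 and 3 of 7 probe sets with TES 1 highest. Over all 329 probe sets of the members, TES 1 was highest for 14.6% and TES 4 for 18.8%, against 12.1% and 14.4% of all probe sets. Mx2 stood at 3.75, 3.11, 2.93 and 2.71 on TES 1 to TES 4, against 3.07, 3.07, 3.19 and 2.78 on sham 1 to sham 4, so that TES 1 was the highest array and TES 4 the lowest. Without TES 1 the differences of Mx2 and Oas1a were -0.11 and -0.16, against 0.10 and 0.07 with it.

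**Figure D5:**
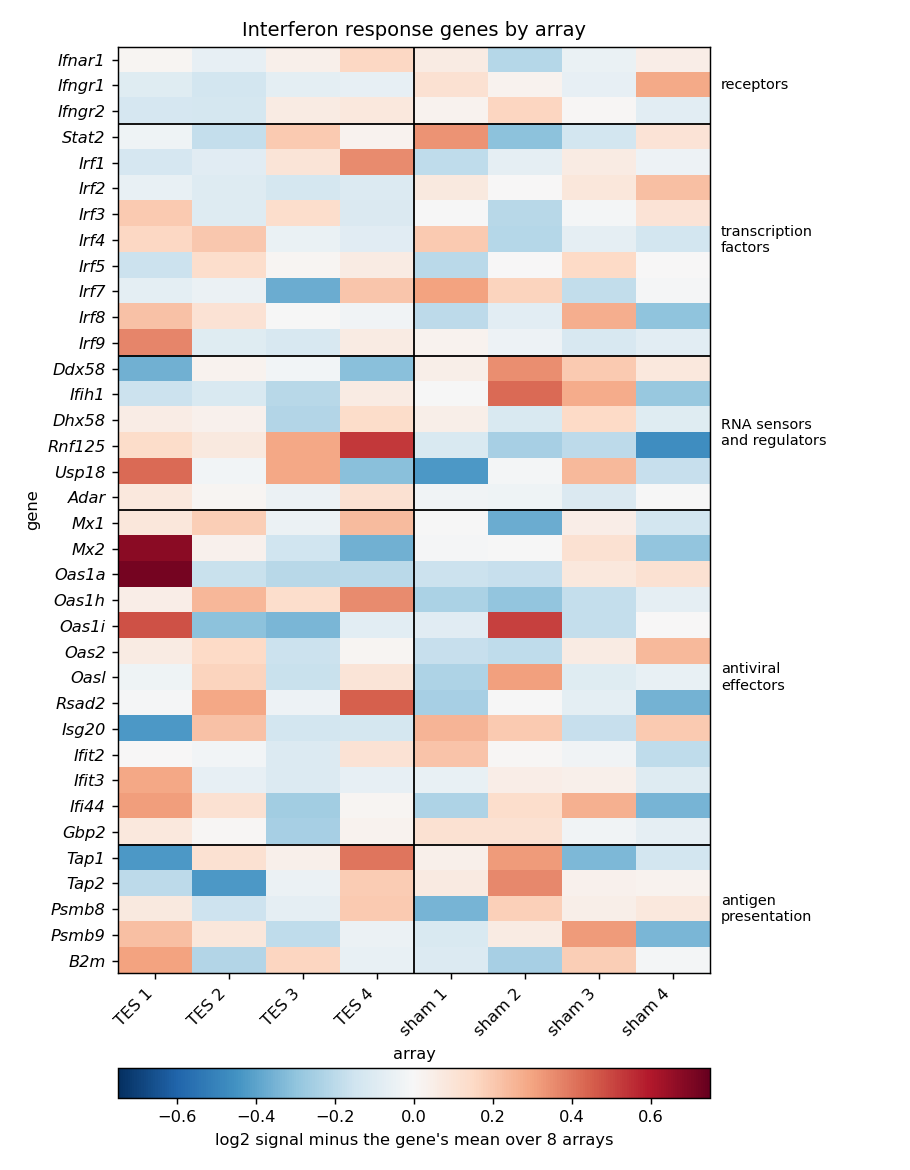
Log2 signal of each interferon response gene (rows, grouped by role) on each TES and sham array (columns), as the deviation from the gene's mean over 8 arrays. Red is above and blue below that mean; Mx2 and Oas1a are darkest on TES 1, Rnf125 and Rsad2 are red on TES 4, and Ddx58 is blue on TES 1 and TES 4.

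Other genes of the pathway were read from 4 lists. Over all genes 45.1% were higher after TES and 5.57% had an unadjusted p under 0.05 in limma. Of 18 genes for ligands, Janus kinases, STAT proteins and feedback, 13 were higher and 5 lower after TES, with a median difference of 0.06 and 2 at an unadjusted p under 0.05. These were the interferon gamma gene Ifng, at a low 2.20 ± 0.05 after TES and 2.00 ± 0.09 after sham, and Ptpn2, a phosphatase that dephosphorylates Janus kinases, with 6.68 ± 0.09 after TES and 6.48 ± 0.11 after sham. Ptpn2 differed by 0.20 (95% interval 0.01 to 0.40). For both Ifng and Ptpn2 all 4 TES arrays lay above all 4 sham arrays. The groups of 3.31% of all genes did not overlap. The kinase Jak1 was at 8.30 ± 0.04 after TES and 8.30 ± 0.16 after sham. Pias1, an inhibitor of STAT signalling, and the phosphatase gene Ptpn11 differed by -0.04 and -0.08. Of 22 sensors and adaptors upstream of interferon 8 were higher and 14 lower, none at that level. Trim25, the ligase that activates RIG-I, differed by -0.22 (95% interval -0.48 to 0.03), Visa (the adaptor MAVS) by -0.13 and Azi2 by -0.12.

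Of 48 further interferon-induced genes, 20 were higher and 28 lower, with a median difference of -0.02, and 3 had an unadjusted p under 0.05. Over all genes 45.1% were higher and 5.57% were at that level in limma. Cmpk2, a mitochondrial nucleotide kinase, averaged 8.15 ± 0.05 after TES and 7.95 ± 0.11 after sham, and differed by 0.20 (95% interval 0.01 to 0.38) with all TES arrays above all sham arrays. Gbp1, a guanylate-binding protein gene at low signal, differed by -0.52, and Psmb10, an immunoproteasome subunit gene, by -0.27. For Psmb10 all TES arrays lay below all sham arrays, while the groups of Gbp1 overlapped. Separation of this kind occurred in 3.31% of all genes. The proteasome activator Psme2 and the peptide-loading factor Tapbp differed by -0.10 and -0.24. Ifit1 and Cxcl10, widely used as markers of an interferon response, were at low signal. Ifit1 averaged 2.38 ± 0.14 after TES and 2.48 ± 0.18 after sham, and Cxcl10 averaged 3.00 ± 0.24 after TES and 2.83 ± 0.14 after sham. Of 13 MHC genes 7 were higher and 6 lower, and 4 had an unadjusted p under 0.05, against 5.57% of all genes. The class II gene RT1-Bb and the class I gene RT1-CE1 differed by 0.41 and 0.34, and the genes the array lists as H2-T23 and H2-M3 by -0.80 and -0.39. H2-T23 rests on 1 probe set, with an SD of 0.72 after sham and a 95% interval of -1.46 to -0.14. The class I genes RT1-A1 and RT1-A2 differed by 0.27 and -0.17, and the protease gene Ctss by 0.00. No gene of the 4 lists passed an adjusted p of 0.05 in limma.

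The arrays carried the signal of retina and of some neighbouring tissue. Beside the counts below, 45.1% of all genes were higher after TES and 5.57% had an unadjusted p under 0.05 in limma. All 11 genes read as rod markers lay above the olfactory receptor percentile, as did all 10 of Mueller glia, while 11 of 14 lymphocyte markers and 6 of 9 granulocyte markers lay at or below it. The array lists 1 of the rod genes as Pde6h, where Pde6g was sought, so it may not mark rods. Pigment epithelium markers were lower after TES in 8 of 12, with a summed linear signal of 1142 to 1872 on TES arrays and 1532 to 1920 on sham arrays, with 2 at or below that percentile and 4 at an unadjusted p under 0.05. Lens markers were higher in 7 of 8, with 191.5 to 1557 on TES arrays and 114.2 to 751.7 on sham arrays, 3 at or below it and 2 (Crygc and Mip) at an unadjusted p under 0.05. Erythrocyte markers were higher in 6 of 6, with 811.1 to 1258 on TES arrays and 469.2 to 1244 on sham arrays, and 4 at or below it. Vascular endothelium markers were lower in 6 of 8, with 275.5 to 343.9 on TES arrays and 298.8 to 325.8 on sham arrays, and 1 at an unadjusted p under 0.05. The part of these tissues in the interferon response values was not tested.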

How the data were processed

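Log2 signals per probe set were deposited. The authors made them by GC-RMA in GeneSpring GX, as the series' design text states, and the submitters' processing notes name GCRMA with no version. GC-RMA corrects probes for background by base composition and summarises them on a log scale. Base 2 was inferred from the range of 0.549 to 13.2, and the scaling between arrays is not stated. Array medians lay between 5.32 and 5.41.

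Probe sets annotated to exactly 1 gene symbol (172924 of 213067) were averaged per gene and array, which gave 16633 genes. Symbols follow the array's annotation, which is old. TES was compared with sham in limma 3.58.1 (R 4.3.3; lmFit, eBayes, 2-sided, no covariate, no filter), with Benjamini-Hochberg adjustment over all genes and a threshold of 0.05. The fit was run on simulated data, in which genes varied independently, to check the size it returned for added changes. How often such changes passed the threshold is not reported here. The series' design text selects by SAM at p under 0.05 and 1.2 fold; SAM was not run, and those thresholds were applied to limma. Scanner files were not analysed here, so each probe's signal over its own background is not known. Precision is limited by the number of arrays.

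The members, gene lists and tests were chosen with earlier results of these data known. Every matched member is named. Values on every array are given for members with an unadjusted p under 0.05, for the 8 others of largest difference above the olfactory receptor percentile, and for the receptors, Stat2, Irf9 and Irf1. From each pathway list the genes with an unadjusted p under 0.05 and the 3 of highest signal are named. Oas1a, Oas1i, Mx2, Ifit1 and Cxcl10 were added after their values were seen. Alternatives were other choices of probe set, array scaling, filters on low signal, an intensity trend, a replicate block and leaving out each array.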

Additional observations from a re-analysis of the deposited data

Results flagged for a closer look

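Among the 72 groups of 4 arrays formed by 36 interferon response genes and 2 treatments, 4 held an array whose gap to its neighbour took more of the group's range than the 95% critical value of Dixon's test, and chance alone gives about 5% of groups. Oas1a on TES 1, at 3.48 with the other TES arrays between 2.55 and 2.59, had a ratio of 0.957. Ifit3 on TES 1, at 2.87 with the others between 2.48 and 2.52, had 0.896. Tap2 on sham 2, at 4.89 with the other sham arrays between 4.55 and 4.59, had 0.881. Isg20 on sham 3, at 5.69 with the others between 6.06 and 6.12, had 0.860. Both TES values belong to TES 1.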

How the results depend on the processing

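No alternative brought any of the 16633 genes, members included, past an adjusted p of 0.05 in limma. At an unadjusted p under 0.05 there were 927 genes, and 1050 with the replicate block. In all, 16 members, 11 higher and 5 lower, kept their direction under every alternative in which they were tested. Rnf125, Oas1h, Rsad2 and Ddx58, named for their unadjusted p in these same data, were among them, and Irf2 was not. On the probe set of highest signal Rnf125, Oas1h and Ddx58 had an unadjusted p of 0.108, 0.885 and 0.315 in limma. Without the lowest quartile of signal, 22 members were left, 14 of them higher (40.3% of all genes left) and 2 with an unadjusted p under 0.05 (5.3% of all genes left). With 1.2 fold as well, 367 of all genes passed, against 597 with no filter. Without genes at or below the olfactory receptor percentile, 23 members were left, 15 higher (40.3%) and 2 at an unadjusted p under 0.05 (5.29%), and 369 genes passed with 1.2 fold as well. These filters leave fewer genes to test. Leaving out each array in turn gave 20 to 26 members higher, a median difference of 0.0033 to 0.0725, and 4 to 8 members with an unadjusted p under 0.05 (8 without sham 3, with Ifngr1, Irf8, Mx1 and Isg20 added and Irf2 lost). At that level were 5.21% to 5.89% of all genes (5.54% without sham 3), and with 1.2 fold as well 618 to 757 genes.

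Of 261 member differences under the other alternatives, 20 had the opposite sign. They were -0.0363 for Irf5, -0.0167 for Oas1a, -0.14 for Oas2, -0.0453 for Oasl, 0.0232 for Gbp2 and -0.0362 for Psmb9 with the median probe set; -0.27 for Ifnar1, 0.0009 for Ifngr2, -0.0487 for Stat2, -0.46 for Irf1, 0.0211 for Irf2, -0.62 for Irf5, 1.03 for Irf7, 0.15 for Oas1i, -0.12 for Psmb8 and -0.0316 for Psmb9 with the probe set of highest mean; 0.0343 for Ifit2 with arrays centred on their median; and -0.0025 for Dhx58, -0.0078 for Oas2 and -0.0019 for Ifit3 after quantile normalization. Leaving out 1 array turned the sign of 15 members, with ranges of -0.0965 to 0.12 for Stat2, -0.0401 to 0.0807 for Irf5, -0.0416 to 0.0769 for Dhx58, -0.11 to 0.23 for Mx2, -0.16 to 0.15 for Oas1a, -0.31 to 0.0246 for Oas1i, -0.0283 to 0.12 for Oas2, -0.041 to 0.14 for Oasl, -0.0655 to 0.0682 for Ifit2, -0.0591 to 0.0714 for Ifit3, -0.0108 to 0.19 for Ifi44, -0.11 to 0.0029 for Gbp2, -0.0614 to 0.21 for Tap1, -0.0868 to 0.0897 for Psmb8 and -0.0699 to 0.15 for Psmb9. The cause of these turns was not tested.

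Correlations did not settle whether replicate numbers pair the arrays. Deviations of same-numbered arrays correlated across genes with r of 0.124, 0.132, 0.0056 and -0.119. TES 1 and TES 2 correlated best with the sham array of the same number, and TES 3 and TES 4 with other sham numbers. With the replicate block 4 members had an unadjusted p under 0.05, against 5 without it (Irf2 was lost), and 6.31% of all genes did. The adjusted p over the members was at least 0.748. Depth has no counterpart here: signal near that of olfactory receptors limits what 13 members can show.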
